A study of Danio rerio with 24 samples.

Results

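The genes described here are those whose transcripts were lower in endodermal cells of zebrafish embryos treated with BMS493 than in control endodermal cells, both when 3 somites (3-S) and when 8 somites (8-S) had formed. The genes were chosen by their BMS493 and DMSO values: a gene was taken when the group mean of log2(CPM + 1) was lower with BMS493 than with the solvent DMSO by 1 or more at both stages, and when every BMS493 library lay below every DMSO library of its stage. CPM are counts per 1000000 gene counts of a library, with one very abundant gene (ENSDARG00000080337) left out of the counts and of the total. This gave 58 of 33737 genes, of which 56 had a symbol. With a pseudocount of 5 in place of 1 the rule gave 28 genes, and 28 of the 58 met it under all 6 alternatives of scaling, pseudocount, total and strand column. The falls are thus what the choice was made on, and are given as a description, with no test.

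RNA was sequenced from cells of Tg(sox17:GFP) embryos, in which a sox17 promoter drives GFP in endodermal cells. Embryos received retinoic acid (RA), BMS493 or DMSO from early cleavage until the 3-S stage, and cells were sorted by GFP at the 3-S or at the 8-S stage. Endodermal cells (GFP+) came from all 3 treatments, and non-endodermal cells (NE, GFP−) from the DMSO-treated embryos only. Each of the 8 groups had 3 libraries, 24 in all. The groups were thus DMSO, RA and BMS493 endodermal cells and DMSO-treated NE cells, at 3-S and at 8-S. By the study's methods, the 8-S embryos were washed after the treatment and kept in medium without the drug until collection, so stage, washing and any batch cannot be told apart. The labels do not say which embryos were pooled for a library, so p-values measure the spread between these libraries, which may be technical.

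RA is made from vitamin A by oxidation of retinal and acts by binding to RA receptors (RAR), which sit on DNA as dimers with retinoid X receptors (RXR). Without ligand the receptors hold corepressors, and with ligand they exchange them for coactivators. BMS493 is an inverse agonist of all RAR subtypes, which strengthens corepressor binding. In the vertebrate embryo, RA patterns the hindbrain and the endoderm along the anteroposterior axis, and in zebrafish RA from the trunk mesoderm is needed for the endoderm to form the pancreas.

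Total gene counts were 9971059 to 17806766 per library, and 3 counts corresponded to 0.209 to 0.390 CPM. The endodermal sort was visible in its defining genes: foxa2 lay between 235.3 and 706.5 CPM in the endodermal libraries and between 10.99 and 27.1 in NE libraries, and foxa3 between 215.0 and 603.6 against 3.71 to 17.6. sox32 lay at 0 to 0.366 CPM in NE libraries and was also low in RA cells (1.26 to 1.98 at 3-S). Some markers of other cell types were as high in sorted DMSO cells as in NE cells. The neural gene sox3 lay at 206.9 to 348.4 CPM against 284.5 to 332.2 at 3-S. The epidermal gene tp63 lay at 75.7 to 189.9 against 94.99 to 153.4 at 3-S. At 8-S tp63 lay at 124.6 to 185.6 against 52.6 to 120.1. krt5 overlapped at 3-S (4.53 to 140.7 against 42.1 to 70.8). At 8-S krt5 was lower in DMSO cells (4.14 to 26.5 against 65.6 to 143.6). The mesodermal gene tbx16 lay at 188.1 to 212.9 against 126.3 to 138.4 at 8-S, but at 64.9 to 79.7 against 108.1 to 206.2 at 3-S. Other markers were lower in DMSO cells at 3-S. The neural gene sox19a lay at 8.99 to 18.3 against 476 to 550.5, and gata1a of blood at 0 to 0.312 against 13.3 to 19.5. The mesodermal gene msgn1 lay at 20.7 to 56.3 against 359.5 to 695.4, but overlapped at 8-S. The part of these markers in the results was not tested. Among the 58 genes, the first RA 8-S library was the lowest of its group for 43 genes, and the first RA 3-S library was the highest of its group for 35. The most abundant gene took 15.5% of the counts of the third RA 8-S library, against 25.6% and 32.6% in the other two.

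At 3-S the BMS493 fall of the 58 genes had a median of -1.61 on the log2(CPM + 1) scale, between -5.53 and -1.01, and at 8-S a median of -2.19, between -5.72 and -1.24. Such falls understate the change of genes with low counts. The fall was the larger at 8-S for 45 genes and at 3-S for 13. The gap between stages was widest for pdx1, with a fall larger by 2.75 at 8-S (-2.75 as the 8-S value minus the 3-S value), whereas nrip1a, at 0.60, lay at the other end. In these bulk samples, fewer cells of a type and less RNA per cell cannot be told apart. The genes whose falls lay just inside the threshold were CABZ01088737.1, with -1.01 at 3-S and -1.24 at 8-S, and cldn15a, with -1.02 and -3.10. Just outside lay meis4.1a, with -0.99 and -1.81, and sost, with -0.99 and -1.10. A fall of this size at both stages was seen in 77 genes, of which 19 had overlapping libraries at one stage or both. The mirror rule, with BMS493 higher at both stages, gave 8 genes. Across all genes, DESeq2 called 0.173% lower with BMS493 at 3-S (30 of 17374 tested) and 0.381% at 8-S (64 of 16814), at an adjusted p under 0.01. edgeR called fewer, 17 genes at 3-S and 24 at 8-S, counted in either direction.

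**Figure D1:**
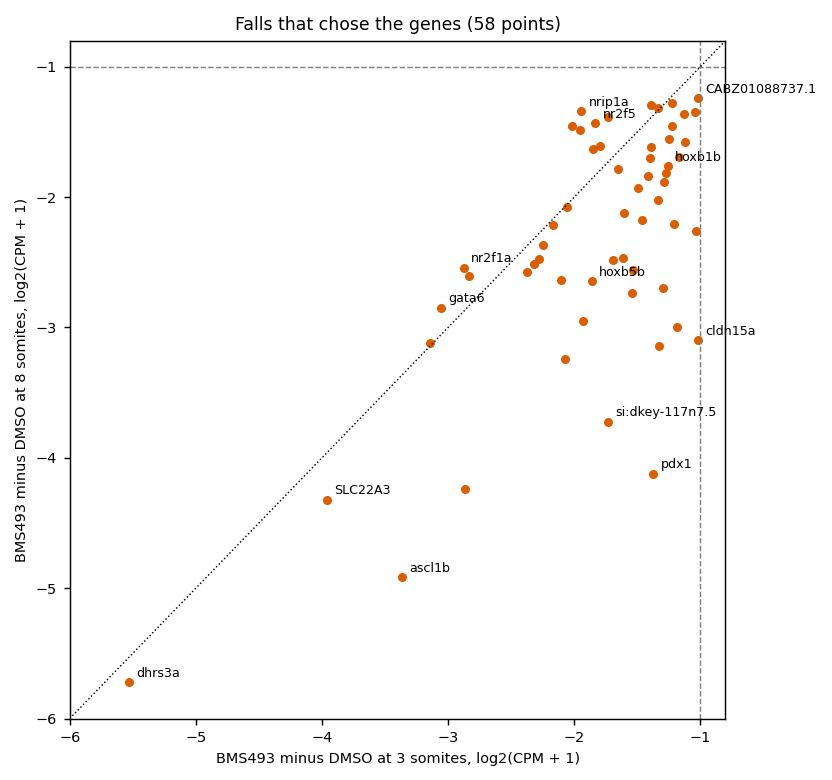
BMS493 minus DMSO at 3-S (x axis) and at 8-S (y axis), as the difference of group means of log2(CPM + 1), for the 58 genes, 1 point each. Dashed lines mark the threshold of -1 and the dotted line marks equal falls; 45 points lie below the dotted line, and dhrs3a lies farthest out with -5.53 and -5.72.

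Lists of marker genes give what else differed between these libraries. The summed CPM of 11 endoderm genes other than gata6 was 1987 to 4289 with BMS493 and 2836 to 3351 with DMSO at 3-S, and 2166 to 4126 and 2123 to 2801 at 8-S, so these overlapped. Single endoderm genes stood apart in opposite directions: foxa2 was at 341.8 to 609.2 with BMS493 and 273.3 to 311.3 with DMSO at 3-S, whereas foxa3 was at 332.3 to 347.7 and 403.8 to 603.6. sox32 was at 8.46 to 11.7 with BMS493 and 1.04 to 4.65 with DMSO at 8-S. The 19 neural genes summed to 1300.2 to 1851 with BMS493 and 849.7 to 1422 with DMSO at 3-S, and to 1331 to 2260 and 1294 to 1481 at 8-S. The sums of the 11 genes of paraxial and tailbud mesoderm overlapped at 3-S (174.4 to 194.1 against 149.5 to 227.0). At 8-S these sums were lower with BMS493 (317.4 to 532.7) than with DMSO (598.8 to 811.8). Of the 11 genes, 0 were called with BMS493 at 8-S, where 0.381% of all genes were called lower. Their median log2 fold change was -0.40. The part of these lists in the falls was not tested.

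**Figure D2:**
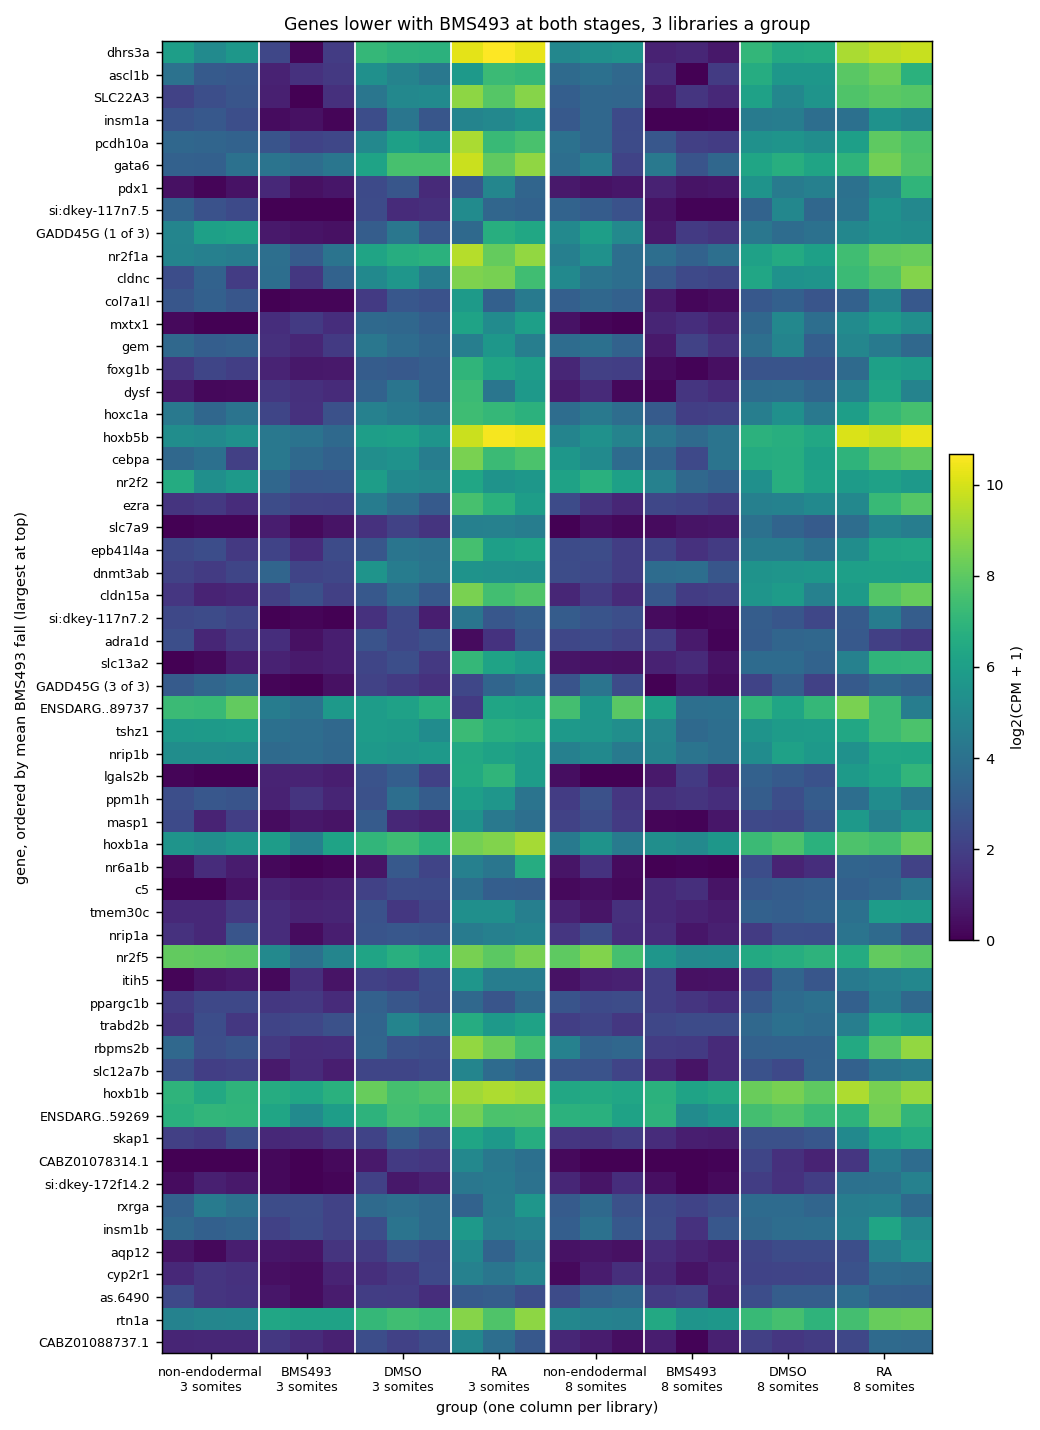
Level of the 58 genes (rows, ordered by the mean fall over both stages) in each of the 24 libraries (columns, 3 for each group), as log2(CPM + 1) on the colour scale. RA columns are the brightest for most rows, and the BMS493 and NE columns are dark for most. Some rows stay bright in NE cells, among them nr2f5, nr2f2, hoxb1b and the genes without a symbol. Some are also bright with BMS493, among them hoxb1b and rtn1a.

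The retinoid pathway contributed 4 genes. dhrs3a (ENSDARG00000044982), which encodes an enzyme that reduces retinal back to retinol and so withdraws the precursor of RA, had the largest fall at both stages. At 3-S dhrs3a stood at 138, 119 and 115 CPM in the DMSO libraries, at 3.82, 0.0990 and 2.72 with BMS493, at 1220.0, 1633 and 1283 with RA and at 62.3, 33.8 and 49.2 in NE cells. At 8-S dhrs3a stood at 134, 84.7 and 91.9 with DMSO, at 1.02, 1.24 and 0.628 with BMS493, at 634, 778 and 866 with RA and at 29.9, 39.0 and 44.1 in NE cells. The 4 groups did not overlap at either stage, and NE cells held more dhrs3a transcript than BMS493-treated endoderm. RA cells exceeded NE cells by a log2 fold change of 4.83 (SE 0.43) at 3-S, with a DESeq2 adjusted p of 1.67e-26, and by 4.40 (SE 0.43) at 8-S. Of its copy dhrs3b, DMSO and BMS493 libraries lay at 210.3 to 278 and 109 to 183 CPM at 3-S, a log2 fold change of -0.79 (SE 0.33) that was not called.

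nrip1a and nrip1b encode the receptor-interacting protein RIP140, a corepressor that binds nuclear receptors carrying their ligand. nrip1b had 52.5, 47.9 and 52.4 CPM with DMSO, 11.9, 12.8 and 10.8 with BMS493, 85.4, 69.6 and 59.0 with RA and 36.3, 36.7 and 35.0 in NE cells at 3-S. At 8-S nrip1b had 35.9, 68.8 and 53.6 CPM with DMSO, 26.5, 16.2 and 13.5 with BMS493, 41.4, 77.8 and 77.2 with RA and 24.2, 32.4 and 19.8 in NE cells. Its DMSO and RA libraries were apart at 3-S and overlapped at 8-S. nrip1a had 5.83, 6.56 and 5.82 CPM with DMSO, 1.55, 0.297 and 0.875 with BMS493, 20.9, 23.8 and 26.9 with RA and 1.91, 1.37 and 5.98 in NE cells at 3-S. At 8-S nrip1a had 2.60, 4.96 and 4.75 CPM with DMSO, 1.58, 0.543 and 0.907 with BMS493, 16.4, 11.8 and 5.25 with RA and 2.26, 4.44 and 1.66 in NE cells. RA cells held more nrip1a than NE cells at both stages, by 2.98 and 2.17 on the log2 scale, whereas nrip1b was called at 8-S (1.44, SE 0.30) and not at 3-S (0.996, SE 0.30, adjusted p 0.0103).

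rxrga, a retinoid X receptor gene, was the receptor gene of the RAR and RXR families among the 58. rxrga had 11.9, 13.9 and 11.6 CPM with DMSO, 4.64, 4.55 and 3.31 with BMS493, 9.30, 20.5 and 47.2 with RA and 8.88, 20.7 and 14.8 in NE cells at 3-S. At 8-S rxrga had 12.2, 12.2 and 10.3 CPM with DMSO, 4.29, 3.49 and 4.61 with BMS493, 22.0, 23.7 and 11.6 with RA and 7.43, 11.4 and 5.28 in NE cells. RA and NE libraries overlapped at 3-S, and rxrga was called in no comparison of RA or DMSO cells at either stage.

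The other genes of each list are those the rule left out on the same BMS493 and DMSO values, so their counts of calls with BMS493 depend on that split and are given as a description; over all genes, 0.173% were called lower at 3-S and 0.381% at 8-S. Of 11 other genes of RA synthesis and breakdown with a test, 0 were called at either stage, and the same held for 16 other receptor and coregulator genes; of 11 retinoid binding and storage genes with a test, 0 were called. cyp26a1, which encodes an enzyme that oxidises RA for removal, stood at 135 to 160.1 CPM with DMSO, at 128 to 177 with BMS493 and at 2194 to 3653 with RA at 3-S. BMS493 against DMSO gave a log2 fold change of -0.05 at 3-S, and RA against DMSO gave 4.37 (SE 0.36). Unlike those of dhrs3a, its BMS493 and DMSO libraries overlapped at 3-S. raraa, a receptor gene, had -0.61 (SE 0.28) and -0.87 (SE 0.28) with BMS493 and was not called.

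The orphan nuclear receptors contributed 4 genes, 3 of them of the COUP-TF group, which act mostly as repressors and can bind the same DNA repeats as RAR. nr2f1a had 73.9, 100.03 and 113 CPM with DMSO, 14.0, 7.43 and 16.1 with BMS493, 708, 286 and 498 with RA and 27.0, 24.2 and 21.8 in NE cells at 3-S. At 8-S nr2f1a had 68.7, 91.2 and 65.1 CPM with DMSO, 13.3, 9.16 and 13.8 with BMS493, 168, 278 and 291 with RA and 23.6, 41.5 and 13.6 in NE cells. The group means of nr2f1a ran from RA over DMSO and NE to BMS493 at both stages, with NE and BMS493 libraries overlapping at 8-S, and RA exceeded NE cells by 4.35 (SE 0.36) and 3.34 (SE 0.36). nr2f5 differed in its NE level. At 3-S nr2f5 had 74.5, 106 and 79.0 CPM with DMSO, 31.1, 14.6 and 27.8 with BMS493, 361, 254 and 360.4 with RA and 279, 261 and 248 in NE cells. At 8-S nr2f5 had 89.2, 99.9 and 116.8 CPM with DMSO, 47.5, 31.8 and 33.4 with BMS493, 94.9, 274 and 241 with RA and 261, 399 and 185 in NE cells. NE cells thus held nr2f5 at levels that overlapped those of RA-treated endoderm, and RA against NE was not called at 3-S (0.31, SE 0.32) or 8-S (-0.40, SE 0.32).

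nr2f2 had 61.0, 32.6 and 28.6 CPM with DMSO, 10.7, 6.53 and 6.71 with BMS493, 77.9, 43.8 and 48.9 with RA and 93.1, 38.8 and 52.5 in NE cells at 3-S. At 8-S nr2f2 had 40.4, 103 and 69.4 CPM with DMSO, 24.7, 11.02 and 8.72 with BMS493, 57.0, 69.0 and 52.7 with RA and 69.2, 108 and 65.2 in NE cells. The DMSO, RA and NE libraries overlapped at both stages, and the BMS493 libraries lay below all of them. RA against NE gave -0.12 (SE 0.45) and -0.34 (SE 0.45) for nr2f2, neither of which was called. nr6a1b, an orphan receptor gene whose mouse counterpart represses pluripotency genes, had few counts in DMSO cells, with 0.486, 6.97 and 3.56 CPM with DMSO, 0.182, 0 and 0.0972 with BMS493, 23.8, 17.1 and 96.6 with RA and 0.287, 1.56 and 0.761 in NE cells at 3-S. At 8-S nr6a1b had 4.68, 1.06 and 1.62 CPM with DMSO, 0, 0.0776 and 0 with BMS493, 9.95, 9.15 and 3.25 with RA and 0.539, 1.95 and 0.237 in NE cells. Its BMS493 libraries all had 3 counts or fewer, so no fold is given for them. Of the 7 other orphan receptor genes with a test at 3-S, 0 were called with BMS493, and at 8-S 1 of 6 was, nr5a2, a gene of liver and pancreas development, with -1.55 (SE 0.30).

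**Figure D3:**
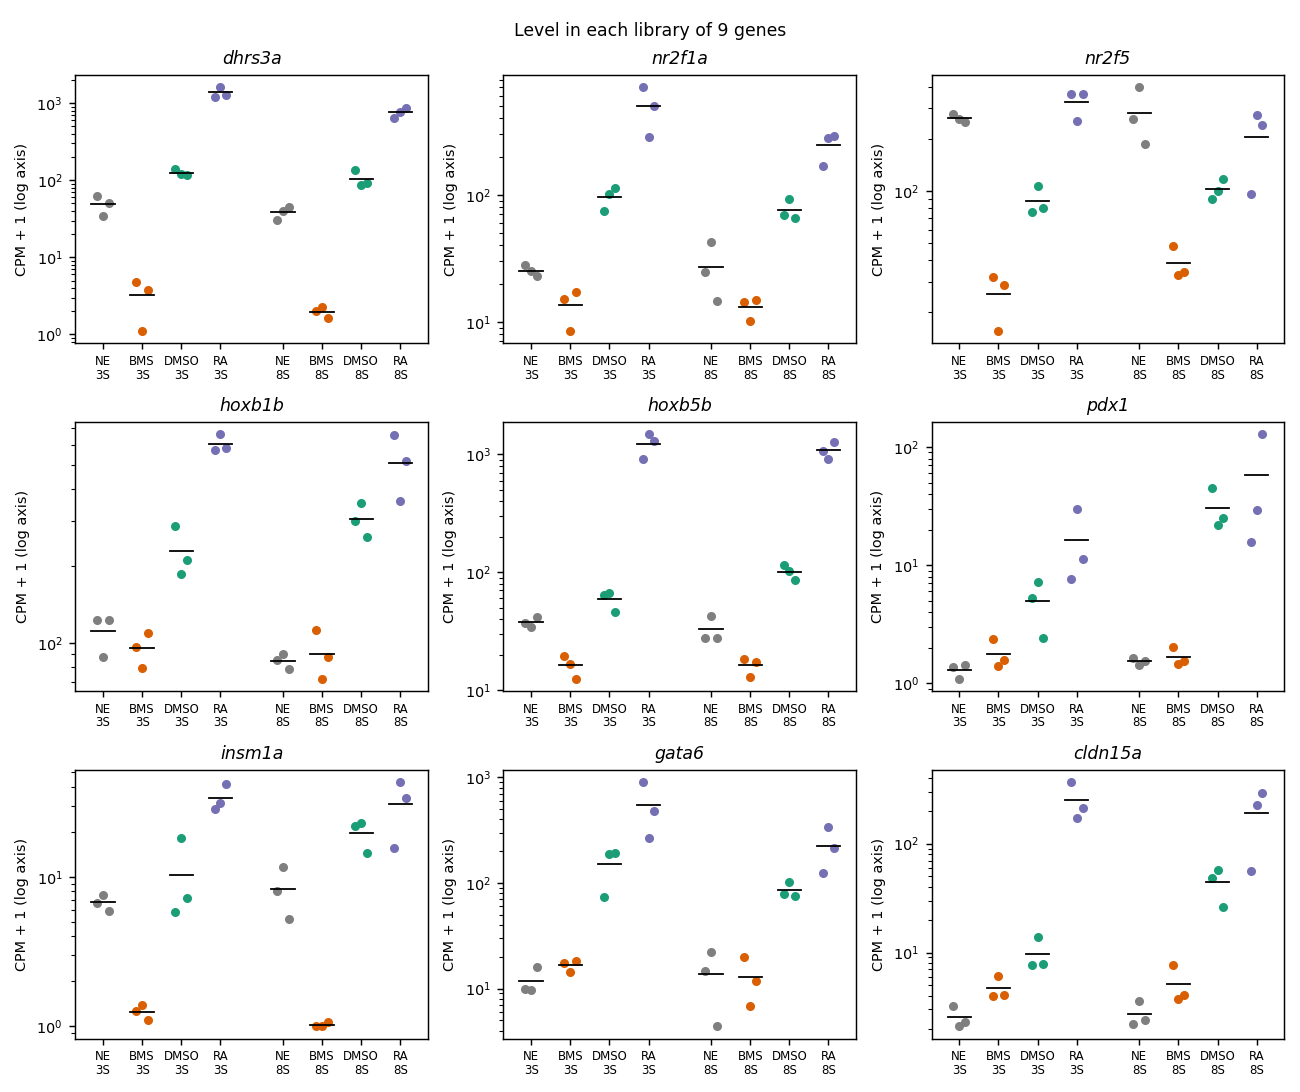
CPM + 1 on a log axis in each library (points, 3 per group) for 9 of the 58 genes, by group (NE, BMS, DMSO and RA at 3-S, then at 8-S); the black line is the mean of CPM + 1. The BMS493 points lie below the DMSO points in every panel, as the rule requires, and the RA points of dhrs3a and hoxb5b lie far above those of the other groups, whereas NE cells reach the RA level for nr2f5.

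The hox genes among the 58 were hoxb1a, hoxb1b and hoxc1a of paralogue group 1 and hoxb5b of group 5; group 1 genes pattern the hindbrain, where RA is known to induce them. hoxb1b had 288, 186 and 211 CPM with DMSO, 95.7, 78.5 and 108 with BMS493, 569, 658 and 583 with RA and 121, 87.1 and 122 in NE cells at 3-S. At 8-S hoxb1b had 300.5, 354 and 259 CPM with DMSO, 111, 71.2 and 86.6 with BMS493, 651, 359 and 515 with RA and 84.5, 89.2 and 77.6 in NE cells. BMS493 and NE libraries overlapped at both stages, with DMSO above them and RA above DMSO. hoxb1a had 129, 161 and 113 CPM with DMSO, 57.997, 24.3 and 72.0 with BMS493, 343, 406 and 598 with RA and 44.6, 38.3 and 47.4 in NE cells at 3-S. At 8-S hoxb1a had 152, 203 and 111 CPM with DMSO, 38.1, 31.2 and 49.3 with BMS493, 208, 179.9 and 304 with RA and 19.4, 43.6 and 20.8 in NE cells. The RA and DMSO libraries of hoxb1a were apart at 3-S and overlapped at 8-S, where RA against DMSO gave 0.71 (SE 0.37). Against NE cells, RA gave 2.46 (SE 0.29) and 2.74 (SE 0.29) for hoxb1b, and 3.37 (SE 0.37) and 3.17 (SE 0.37) for hoxb1a, all called.

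hoxc1a had 24.6, 19.8 and 15.7 CPM with DMSO, 3.64, 1.88 and 5.25 with BMS493, 164, 136 and 115 with RA and 18.6, 10.98 and 16.4 in NE cells at 3-S. At 8-S hoxc1a had 22.7, 39.5 and 19.1 CPM with DMSO, 7.44, 2.95 and 3.21 with BMS493, 62.9, 136 and 183 with RA and 13.3, 19.0 and 12.9 in NE cells. DMSO and NE libraries of hoxc1a overlapped at 3-S, unlike those of hoxb1a and hoxb1b. hoxb5b had 62.8, 65.4 and 44.9 CPM with DMSO, 18.5, 15.7 and 11.5 with BMS493, 908, 1479 and 1297 with RA and 36.1, 33.1 and 41.1 in NE cells at 3-S. At 8-S hoxb5b had 113, 102 and 84.3 CPM with DMSO, 17.5, 11.9 and 16.3 with BMS493, 1067, 915 and 1261 with RA and 26.9, 41.6 and 26.5 in NE cells. The 4 groups of hoxb5b did not overlap at either stage, and RA exceeded NE cells by 5.07 (SE 0.27) at 3-S (adjusted p 1.24e-74) and 5.21 (SE 0.27) at 8-S. tshz1, a zinc-finger gene of the teashirt family, had 58.4, 55.5 and 35.8 CPM with DMSO, 14.3, 12.97 and 11.3 with BMS493, 153, 106 and 95.8 with RA and 53.6, 54.6 and 58.9 in NE cells at 3-S. At 8-S tshz1 had 45.3, 57.3 and 58.4 CPM with DMSO, 28.5, 11.6 and 13.5 with BMS493, 83.6, 153 and 197 with RA and 53.5, 47.4 and 37.2 in NE cells. RA exceeded NE cells for tshz1 by 1.1 (SE 0.33) and 1.73 (SE 0.33), both called.

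Of 20 other hox genes of groups 1 to 8, BMS493 lowered 0 at 3-S and 2 at 8-S, hoxa3a (-1.77, SE 0.34) and hoxb6b (-1.76, SE 0.40), and their median log2 fold change was -0.40 at 3-S and -1.05 at 8-S. hoxb5a, the paralogue of hoxb5b, had -0.30 (SE 0.39) and -1.22 (SE 0.39) and was not called. With RA, 12 of the 20 were higher than with DMSO and 2 lower at 3-S (1.93% and 2.2% of all genes), and 9 were higher and 2 lower at 8-S (0.953% and 1.72%). Of the genes of groups 9 to 13, 0 of 17 were called with BMS493 at either stage, and with RA 0 were higher and 12 of 18 lower at 3-S and 11 of 17 lower at 8-S.

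The regulators of pancreas and endocrine cells contributed 5 genes. pdx1 encodes the homeodomain factor that marks the pancreas and duodenum, and its BMS493 fall was -1.37 at 3-S and -4.12 at 8-S. At 3-S pdx1 had 4.29, 6.14 and 1.40 CPM with DMSO, 1.37, 0.396 and 0.583 with BMS493, 6.66, 28.7 and 10.2 with RA and 0.382, 0.0915 and 0.435 in NE cells. At 8-S pdx1 had 43.8, 20.8 and 23.9 CPM with DMSO, 1.02, 0.466 and 0.558 with BMS493, 14.8, 28.6 and 127 with RA and 0.646, 0.433 and 0.552 in NE cells. The DMSO level was thus higher at 8-S than at 3-S in every library, while the BMS493 libraries reached at most 1.37 CPM at 3-S and 1.02 at 8-S. pdx1 only just met the rule at 3-S, where the lowest DMSO library (1.40 CPM, 13 counts) barely exceeded the highest BMS493 library (1.37 CPM, 15 counts). RA against NE gave 5.69 (SE 0.82) and 6.77 (SE 0.75) for pdx1, both called, whereas the RA and DMSO libraries overlapped at 8-S, where RA against DMSO gave 1.08 (SE 0.67). gata6, a zinc-finger factor of endoderm, heart and pancreas, had 71.9, 187 and 191 CPM with DMSO, 16.4, 13.3 and 17.3 with BMS493, 905, 267 and 483 with RA and 8.88, 8.69 and 15.01 in NE cells at 3-S. At 8-S gata6 had 77.3, 102 and 73.7 CPM with DMSO, 18.8, 5.90 and 10.7 with BMS493, 122, 336 and 211 with RA and 13.7, 21.2 and 3.39 in NE cells. The BMS493 and NE libraries of gata6 overlapped at both stages, and RA exceeded NE cells by 5.69 (SE 0.51) and 4.24 (SE 0.51).

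ascl1b encodes a basic helix-loop-helix factor that in zebrafish is needed for the first endocrine cells of the pancreas. At 3-S ascl1b had 39.9, 26.4 and 18.2 CPM with DMSO, 1.002, 1.88 and 2.43 with BMS493, 52.6, 153 and 137 with RA and 15.2, 7.05 and 6.53 in NE cells. At 8-S ascl1b had 97.8, 48.6 and 49.7 CPM with DMSO, 1.47, 0 and 2.65 with BMS493, 246, 319 and 112 with RA and 11.9, 14.4 and 11.2 in NE cells. The groups did not overlap at either stage, and RA exceeded NE cells by 3.55 (SE 0.59) and 4.27 (SE 0.59). RA against DMSO gave 1.98 (SE 0.59) for ascl1b at 3-S, with an adjusted p of 0.0160. insm1a and insm1b encode zinc-finger factors of endocrine and neural differentiation. insm1a had 4.78, 17.1 and 6.25 CPM with DMSO, 0.273, 0.396 and 0.0972 with BMS493, 27.4, 30.4 and 40.8 with RA and 5.73, 6.59 and 4.89 in NE cells at 3-S. At 8-S insm1a had 20.8, 22.0 and 13.4 CPM with DMSO, 0, 0 and 0.0698 with BMS493, 14.5, 42.2 and 32.8 with RA and 7.002, 10.7 and 4.26 in NE cells. Every NE library held more insm1a than every BMS493 library, and the 8-S BMS493 libraries had 3 counts or fewer. insm1b had 4.78, 16.2 and 11.5 CPM with DMSO, 3.19, 4.46 and 3.31 with BMS493, 52.0, 22.6 and 26.0 with RA and 11.1, 8.79 and 9.90 in NE cells at 3-S. At 8-S insm1b had 11.3, 12.9 and 13.5 CPM with DMSO, 4.62, 1.86 and 6.49 with BMS493, 23.2, 76.0 and 31.2 with RA and 8.19, 14.9 and 6.62 in NE cells. Every RA library of insm1b lay above every NE library. RA exceeded NE cells by 2.52 and 2.11 for insm1a and by 1.76 and 2.19 for insm1b, on the log2 scale and all called.

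Of 21 other genes of this list, BMS493 lowered 0 at 3-S and 4 at 8-S. These were rfx6, an endocrine regulator, with -6.67 (SE 1.502), ascl1a with -3.59 (SE 0.72), myt1b with -3.35 (SE 0.61) and nr5a2, given above. foxa2 and foxa3 had 0.72 (SE 0.33) and 0.53 (SE 0.39) at 8-S and were not called. The Notch list, which ascl1b also belongs to, had 2 of 16 other genes lower at 8-S, ascl1a and the ligand gene dlb (-2.26, SE 0.44).

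foxg1b, mxtx1 and dnmt3ab are further regulators of transcription or chromatin. foxg1b, a forkhead gene whose paralogues act in the forebrain, had 7.62, 6.97 and 8.30 CPM with DMSO, 1.09, 0.594 and 0.681 with BMS493, 127, 74.6 and 60.4 with RA and 2.10, 3.66 and 2.94 in NE cells at 3-S. At 8-S foxg1b had 5.85, 5.79 and 5.56 CPM with DMSO, 0.226, 0.0776 and 0.349 with BMS493, 12.0, 65.5 and 57.6 with RA and 1.19, 3.03 and 2.92 in NE cells. The groups were apart at both stages, and the first RA 8-S library lay well below the other two. mxtx1, a homeobox gene known from the yolk syncytial layer, had 11.6, 10.7 and 8.08 CPM with DMSO, 1.64, 2.48 and 1.65 with BMS493, 72.7, 34.9 and 63.8 with RA and 0.191, 0 and 0 in NE cells at 3-S. At 8-S mxtx1 had 10.8, 30.4 and 13.3 CPM with DMSO, 1.13, 1.63 and 1.05 with BMS493, 35.0, 56.7 and 37.7 with RA and 0.431, 0.108 and 0 in NE cells. NE libraries had 3 counts or fewer at 3-S. The 7 other genes of the yolk syncytial list summed to 64.5 to 84.4 CPM with BMS493 and 73.7 to 97.1 with DMSO at 3-S. At 8-S they summed to 79.6 to 170.2 CPM with BMS493 and 77.2 to 95.3 with DMSO, and their part was not tested. dnmt3ab, a de novo DNA methyltransferase gene, had 45.6, 21.3 and 16.1 CPM with DMSO, 10.2, 3.56 and 3.79 with BMS493, 43.6, 41.7 and 39.7 with RA and 3.25, 2.65 and 3.70 in NE cells at 3-S. At 8-S dnmt3ab had 44.2, 46.0 and 49.7 CPM with DMSO, 12.7, 13.6 and 6.21 with BMS493, 65.0, 66.5 and 63.2 with RA and 4.63, 4.12 and 2.84 in NE cells. RA and DMSO libraries of dnmt3ab overlapped at 3-S, and RA against NE gave 3.71 (SE 0.44) and 4.19 (SE 0.44). Of 8 other genes of DNA methylation, 5 dnmt genes and the demethylation genes tet1, tet2 and tet3, 0 were called with BMS493 at either stage.

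The epithelial genes were the claudins cldnc and cldn15a, which form tight junctions, ezra (ezrin, which ties the membrane to actin) and the protocadherin pcdh10a. cldn15a had 6.73, 12.8 and 6.79 CPM with DMSO, 3.00, 5.05 and 3.11 with BMS493, 369, 173 and 212 with RA and 2.197, 1.098 and 1.31 in NE cells at 3-S. At 8-S cldn15a had 47.0, 56.7 and 25.2 CPM with DMSO, 6.65, 2.72 and 3.07 with BMS493, 54.9, 224 and 289 with RA and 1.19, 2.60 and 1.42 in NE cells. DMSO libraries lay higher at 8-S than at 3-S, BMS493 libraries overlapped between stages, and RA exceeded NE cells by 7.35 (SE 0.53) and 6.82 (SE 0.53). cldnc had 32.2, 47.6 and 21.3 CPM with DMSO, 13.5, 2.28 and 9.14 with BMS493, 391, 356 and 170.4 with RA and 4.78, 9.15 and 2.72 in NE cells at 3-S. At 8-S cldnc had 78.7, 42.8 and 45.1 CPM with DMSO, 6.88, 4.11 and 3.70 with BMS493, 154, 213 and 416 with RA and 32.2, 16.4 and 13.5 in NE cells. BMS493 and NE libraries of cldnc overlapped at 3-S and not at 8-S.

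ezra had 21.5, 12.9 and 7.22 CPM with DMSO, 4.64, 3.37 and 3.21 with BMS493, 188, 111 and 60.8 with RA and 2.01, 2.38 and 1.52 in NE cells at 3-S. At 8-S ezra had 24.3, 25.6 and 32.4 CPM with DMSO, 3.83, 3.41 and 2.58 with BMS493, 30.3, 143 and 233 with RA and 4.42, 2.06 and 1.18 in NE cells. The first RA 8-S library fell within the DMSO range for ezra. pcdh10a had 30.3, 66.9 and 47.5 CPM with DMSO, 5.83, 3.47 and 3.89 with BMS493, 638, 149 and 194 with RA and 10.99, 10.2 and 9.24 in NE cells at 3-S. At 8-S pcdh10a had 41.4, 45.4 and 36.8 CPM with DMSO, 6.43, 3.10 and 2.72 with BMS493, 64.5, 256 and 197 with RA and 14.8, 10.8 and 4.42 in NE cells. The RA libraries of pcdh10a differed widely among themselves at both stages. All 4 epithelial genes were called higher in RA than in NE cells at both stages. Of all tested genes, 5.41% were called higher at 3-S and 4.73% at 8-S. Such calls at both stages were made for 44 of the 58 genes, so they do not set the epithelial genes apart. Of 20 other epithelial genes, BMS493 lowered 0 at 3-S and 1 at 8-S, cldn2 (-3.54, SE 0.66); epcam, an epithelial adhesion gene, had -0.01 (SE 0.35) and 0.13 (SE 0.35).

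SLC22A3 (ENSDARG00000058775), an organic cation transporter gene, had the second largest fall at 3-S. At 3-S SLC22A3 had 17.02, 30.4 and 33.8 CPM with DMSO, 0.910, 0 and 1.75 with BMS493, 467, 229 and 421 with RA and 3.34, 4.85 and 6.09 in NE cells. At 8-S SLC22A3 had 68.5, 29.4 and 44.7 CPM with DMSO, 0.677, 2.10 and 1.33 with BMS493, 211, 252 and 229 with RA and 8.08, 10.7 and 10.6 in NE cells. The order from RA over DMSO and NE to BMS493 held in every library, and RA exceeded NE cells by 6.31 (SE 0.44) and 4.63 (SE 0.43). slc7a9, a subunit of a cystine transporter, had 1.86, 3.33 and 2.05 CPM with DMSO, 0.819, 0.198 and 0.486 with BMS493, 24.0, 24.6 and 21.7 with RA and 0, 0.0915 and 0.109 in NE cells at 3-S. At 8-S slc7a9 had 14.8, 9.81 and 7.28 CPM with DMSO, 0.226, 0.466 and 0.558 with BMS493, 12.9, 28.2 and 21.7 with RA and 0, 0.325 and 0.158 in NE cells. NE libraries of slc7a9 had 3 counts or fewer at both stages.

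GADD45G (1 of 3) and GADD45G (3 of 3) are copies of a growth-arrest and DNA-damage gene, and reads that fit several copies were not counted. GADD45G (1 of 3) had 7.94, 17.7 and 6.36 CPM with DMSO, 0.637, 0.495 and 0.389 with BMS493, 11.7, 102 and 80.2 with RA and 27.9, 66.4 and 71.5 in NE cells at 3-S. At 8-S GADD45G (1 of 3) had 17.8, 12.5 and 14.9 CPM with DMSO, 0.677, 2.56 and 2.02 with BMS493, 29.3, 39.6 and 36.1 with RA and 31.8, 61.4 and 31.2 in NE cells. Every NE library of this copy lay above every DMSO library at both stages, and RA and NE libraries overlapped. GADD45G (3 of 3) had 3.32, 2.498 and 1.83 CPM with DMSO, 0.0910, 0 and 0.389 with BMS493, 3.77, 10.3 and 14.2 with RA and 7.26, 10.52 and 13.3 in NE cells at 3-S. At 8-S GADD45G (3 of 3) had 3.38, 7.80 and 3.24 CPM with DMSO, 0, 0.543 and 0.279 with BMS493, 7.03, 11.3 and 8.83 with RA and 5.82, 16.2 and 4.42 in NE cells. RA against NE gave 0.25 and -0.12 at 3-S for these copies, on the log2 scale, and neither was called.

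si:dkey-117n7.5, a gene in no list and without an assigned function, has the largest mean fall of the genes in no list. At 3-S si:dkey-117n7.5 had 4.46, 1.46 and 1.72 CPM with DMSO, 0, 0 and 0 with BMS493, 34.7, 10.46 and 9.11 with RA and 9.46, 5.49 and 4.24 in NE cells. At 8-S si:dkey-117n7.5 had 9.48, 30.1 and 10.8 CPM with DMSO, 0.451, 0.0776 and 0.0698 with BMS493, 15.9, 42.3 and 30.8 with RA and 9.48, 7.69 and 5.44 in NE cells. Every NE library of si:dkey-117n7.5 lay above every BMS493 library, and si:dkey-117n7.2, of the same clone, is also among the 58.

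The other 27 genes had larger DMSO stage means of 2.17 to 179.6 CPM, falls of -2.37 to -1.03 at 3-S and of -3.14 to -1.28 at 8-S. Those named in this paragraph were picked after their values were seen. They include cebpa, a liver and myeloid transcription factor gene, at 66.2 to 99.99 CPM with DMSO and 4.11 to 16.1 with BMS493 at 8-S, and 122 to 269 with RA. rtn1a, a reticulon gene, had the highest DMSO level of these genes with a symbol, at 138 to 166 CPM at 3-S, against 70.1 to 77.7 with BMS493 and 25.7 to 30.1 in NE cells. rbpms2b, an RNA-binding protein gene, was low in DMSO cells (4.96 to 10.2 CPM) at 3-S, against 172 to 491 with RA. skap1, a signalling adaptor gene, had 3.48 to 7.49 CPM with DMSO and 52.3 to 98.8 with RA at 3-S. c5 and masp1 encode complement proteins and itih5 a heavy chain of an extracellular protease inhibitor. c5 had 6.76 to 8.49 CPM with DMSO, 0.489 to 1.71 with BMS493 and 8.77 to 17.1 with RA at 8-S, so its RA libraries began just above the DMSO libraries, whereas masp1 had 3.90 to 6.27, 0.0776 to 0.558 and 24.8 to 53.2. Transport across membranes was represented by slc13a2, a dicarboxylate transporter gene, with 9.50 to 12.4 CPM with DMSO, 0.419 to 1.40 with BMS493 and 25.0 to 128 with RA at 8-S, and by the aquaporin gene aqp12, with 3.64 to 4.49, 0.698 to 1.58 and 4.98 to 41.6. cyp2r1, a vitamin D hydroxylase gene, had 1.70 to 4.096 CPM with DMSO and 17.4 to 26.6 with RA at 3-S. adra1d, an adrenergic receptor gene, had an RA mean below its DMSO mean at both stages (as did ENSDARG00000089737 at 3-S and nr2f2 at 8-S), with 7.66 to 10.9 CPM with DMSO and 2.33 to 6.79 with RA at 8-S. Of these 27 genes, 22 were called higher in RA than in NE cells at 3-S (5.41% of all genes) and 20 at 8-S (4.73%), and 0 were called lower (3.96% and 3.35%).

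RA-treated endodermal cells were compared with NE cells, with DESeq2 over all genes and all 24 libraries. The rule did not use the RA and NE libraries, but these are not free of it. A gene had to be expressed in DMSO endoderm to be chosen, and all tested genes are not matched for this. NE libraries also deviated together with the DMSO libraries of the same number (r 0.482 to 0.694 at 3-S). The counts are thus given as a description. All 58 genes were tested in this comparison, which differs in treatment and in cell type together. At 3-S 46 of the 58 genes (79.3%) were called higher in RA cells and 0 lower, where 5.41% of all tested genes were called higher and 3.96% lower. At 8-S 45 (77.6%) were called higher and 0 lower, where 4.73% of all were higher and 3.35% lower. Before adjustment, 52 of the 58 genes had a DESeq2 p-value below 0.05 at 3-S, 51 of them up in RA cells and 1 down. At 8-S it was 49 genes, with 49 up and 0 down. Up and down together, at most 23% of all genes had such a p-value at 3-S and at most 21.9% at 8-S. The share of all genes in each direction was not counted for these p-values. edgeR called 41 of the 58 higher and 0 lower at each stage. The median log2 fold change of the 58 was 3.77 at 3-S and 3.55 at 8-S, also with the genes near 0 in NE cells set at a floor of 3 counts per library, against 0.00 and -0.06 over all genes. At 3-S the libraries were apart with RA higher for 49 genes, lower for 1, ENSDARG00000089737, and overlapped for 8; at 8-S they were apart with RA higher for 48. Of all tested genes, 12.4% were apart with RA higher and 13.9% with RA lower at 3-S, and 10% and 16.7% at 8-S.

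Calls recurred at both stages for 44 of the 58 genes. The share of all genes called higher at both stages was not counted, and cannot exceed the 4.73% at 8-S. Calls at 3-S alone were those of col7a1l and gem, and at 8-S alone that of nrip1b, while 11 genes were called at neither stage. The 11 were nr2f2, nr2f5, rxrga, both GADD45G copies, both si:dkey-117n7 genes, adra1d, ENSDARG00000092402, ENSDARG00000059269 and ENSDARG00000089737. Among genes with more than 3 counts in at least 1 NE library of the stage, slc13a2 had the largest change at 3-S, with 8.05 (SE 0.70). At 8-S it was mxtx1, with 8.12 (SE 0.78). Both rest on few NE counts: 0, 2 and 8 for slc13a2 at 3-S, and 4, 1 and 0 for mxtx1 at 8-S. NE libraries all had 3 counts or fewer for mxtx1, slc7a9, lgals2b and CABZ01078314.1 at 3-S, and for c5, slc7a9, lgals2b and CABZ01078314.1 at 8-S. For example, lgals2b had 88.0, 127 and 58.005 CPM in the RA 3-S libraries and 0.0955, 0 and 0 in the NE 3-S libraries. Marker sums differed in this comparison too: the 8 neural crest genes summed to 7.29 to 19.4 CPM in RA 3-S cells against 313.5 to 350.5 in NE 3-S cells, and the 6 heart and lateral plate genes summed to 459.8 to 558.5 CPM in RA 3-S cells against 120.3 to 195.1 in NE 3-S cells. Of 6 neural crest genes with a test, 0 were called higher and 5 lower. Of the 6 heart and lateral plate genes, 1 was called higher and 2 lower, with a median log2 fold change of -0.82. Over all genes, 5.41% were called higher and 3.96% lower. The heart and lateral plate sum thus does not stand for its list as a whole. The part of these markers in the differences of the 58 genes was not tested.

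**Figure D4:**
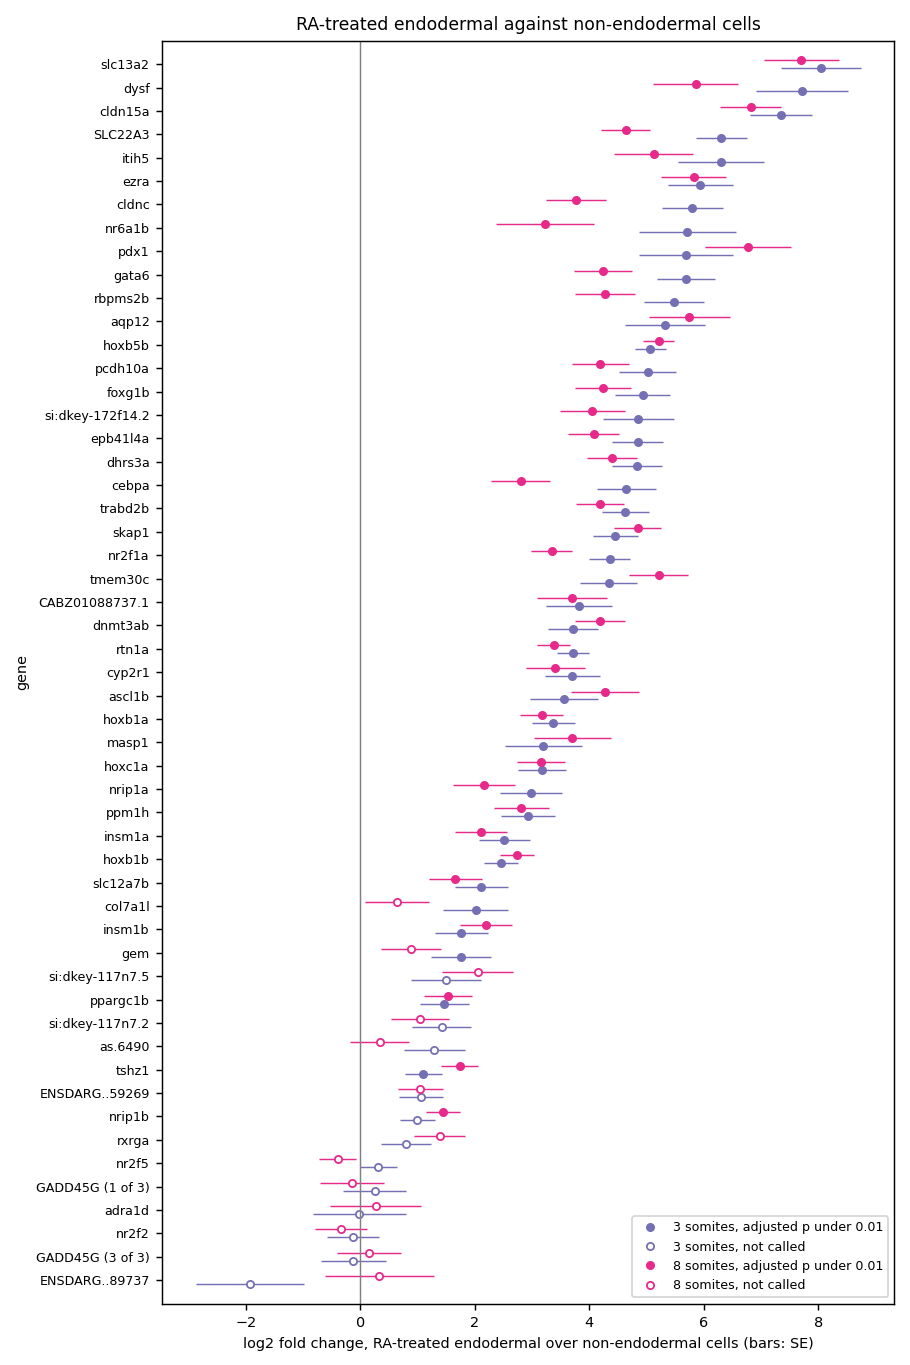
DESeq2 log2 fold change (x axis) of RA-treated endodermal over NE cells at 3-S and 8-S, with SE as bars, for the 53 of 58 genes with more than 3 counts in at least one NE library of each stage (rows). Filled points have an adjusted p under 0.01; slc13a2 and dysf lie at the top, and nr2f5, nr2f2 and both GADD45G copies lie near 0.

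RA and DMSO endodermal cells were compared at each stage. These values use the same DMSO libraries as the rule, so the choice of genes draws the RA-minus-DMSO difference downwards. All tested genes are also not matched to the 58 for expression in DMSO endoderm. The counts are thus given as a description. At 3-S 44 of 58 genes were called higher with RA and 0 lower (1.93% of all genes higher and 2.2% lower), with a median log2 fold change of 2.38. At 8-S 23 were called higher and 0 lower (0.953% of all genes higher and 1.72% lower), and the median was 1.60. At an unadjusted p under 0.05, 52 were higher at 3-S and 42 at 8-S, and 0 were lower at either stage. Over all genes, at most 15.9% and 12.8% had such a p in either direction, by the count used for RA against NE. edgeR called 31 and 17 of the 58 higher and 0 lower. The 8-S count was 15 without the third RA library, and 17 to 27 without any other. Marker sums moved with this comparison: at 3-S the 14 genes of pharyngeal endoderm summed to 39.1 to 93.2 CPM with RA against 439.98 to 588.9 with DMSO, the 19 neural genes to 204.4 to 346.4 against 849.7 to 1422, the 13 genes of epidermis and enveloping layer to 699.8 to 1313 against 2405 to 2566, and the 6 heart and lateral plate genes to 459.8 to 558.5 against 79.7 to 106.6. Of the 14 pharyngeal genes 11 were called lower and 0 higher, and of the 19 neural genes 5 lower and 1 higher. Of the 13 epidermal genes 2 were called lower and 1 higher. Of the 6 heart and lateral plate genes 1 was called lower and 2 higher. The median log2 fold change of the heart and lateral plate genes was -0.12, so their sum does not stand for the list. The part of these markers in the RA differences was not tested. The largest changes were in rbpms2b at both stages, 5.53 (SE 0.53) and 5.001 (SE 0.53), beside its BMS493 falls of -1.40 and -1.70. hoxb5b had 4.40 and 3.59, beside falls of -1.86 and -2.64, and dhrs3a had 3.47 and 3.02, beside falls of -5.53 and -5.72. pdx1, ascl1b, nr2f2, nrip1b, rxrga and dnmt3ab were among the 14 genes called at neither stage. The difference between the stages was not tested.

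DMSO endodermal and NE cells were also compared. The rule favours high values in these DMSO libraries, which draws the differences upwards, so the counts of higher genes are given as a description and nothing is read from them. At 3-S 24 of 58 genes were called higher in DMSO endoderm (4.23% of all genes) and 3 lower (3.35%), and at 8-S 27 were higher (4.4%) and 1 lower (2.78%). The genes called lower were nr2f5 at both stages, with -1.60 (SE 0.32) and -1.49 (SE 0.32), and both GADD45G copies at 3-S. Genes higher at both stages numbered 22, among them pdx1 (3.74, SE 0.83, and 5.68, SE 0.75), gata6 (3.77, SE 0.51, and 2.75, SE 0.51) and dnmt3ab (3.17, SE 0.44, and 3.57, SE 0.44). The share of all genes higher at both stages was not counted, and cannot exceed the 4.4% at 8-S. dhrs3a was not called, with 1.36 (SE 0.43) and an adjusted p of 0.0186 at 3-S and 1.38 (SE 0.43) at 8-S. insm1a at 8-S had 1.35 (SE 0.45) and was called by DESeq2 with the replicate number as a block, at 1.38 and an adjusted p of 0.00728. That block covered all 24 libraries, so it was not a paired test of DMSO and NE cells alone. NE means were above DMSO means for 12 genes at 3-S and 9 at 8-S, among them rbpms2b and col7a1l, a collagen gene, at both stages.

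Between stages, 0 of the 58 genes were called in RA cells and 0 in NE cells. Of all genes, 0.0956% were called between the RA stages and 0.0141% between the NE stages. At an unadjusted p under 0.05, 10 of the 58 genes differed between the RA stages, 2 higher and 8 lower at 8-S. Of all genes, at most 14.5% did, by the count used for RA against NE. Between the NE stages 5 of the 58 differed, 4 higher and 1 lower, where at most 3.63% of all genes did. edgeR called 0 of the 58 in each. The median log2 fold change from 3-S to 8-S was -0.20 in RA cells and 0.13 in NE cells.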

How the data were processed

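SMART-seq2 cDNA of sorted cells was sequenced as single-end reads, and the authors mapped reads with STAR 2.5.4 to the Zv9 assembly. The deposited values are raw counts per gene, of which the unstranded column was used, without its 4 summary rows and the dominant gene. Reads that map to several places are not in these counts, and strand is not resolved, so paralogues and overlapping genes are uncertain. Symbols came from the study's tables and then from a supplied table. Of 33737 IDs, 22199 had one.

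CPM were computed from these counts. Tests used DESeq2 1.42.0 (R 4.3.3, Wald test, all 24 libraries, group as factor, called at an adjusted p under 0.01), and edgeR 4.0.16 quasi-likelihood as the alternative. Other alternatives changed scaling, filters, pseudocount, strand column, libraries and the replicate block. The code was tested on simulated counts, with 100 genes raised and 100 lowered 4-fold in RA 3-S libraries. In RA against NE, DESeq2 recovered 78 raised and 68 lowered genes and called 10 unchanged genes. edgeR recovered 49 and 46 and called 0 unchanged genes. Genes that were not called may thus still differ. In this check DESeq2 called more unchanged genes than its threshold of 0.01 stands for, so some calls may be false. DMSO and NE libraries with the same number deviated together (r 0.482 to 0.694 at 3-S and 0.218 to 0.378 at 8-S). The labels do not say what libraries of the same number share, so a pairing was not established. None of the other groups compared in this way met the threshold of 0.1 in every pair. Not all groups were compared, for example RA with BMS493 cells or DMSO cells between stages. Genes were named if they belonged to a fixed list, up to 30 in all with the largest mean falls at a DMSO mean of 5 CPM or more among the rest. The members and lists were chosen with earlier results of these data known. Promoter and other sequences were not used here.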

Additional observations from a re-analysis of the deposited data

How the results depend on the processing

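The rule gave 28 genes with a pseudocount of 5, 107 with a fall of 0.58 and 27 with a fall of 1.5, against 58, and 55 to 77 when a DMSO or BMS493 library was left out. Of the 58, 28 met it under all 6 other scalings, pseudocounts, totals and strand columns. Over all genes, BMS493 against DMSO gave 17 calls at 3-S and 24 at 8-S with edgeR and 50 and 107 at an adjusted p under 0.05, against 30 and 65, and 25 to 30 and 46 to 67 without 1 library. Calls among the 58 without 1 library were 40 to 46 (3-S) and 41 to 45 (8-S) for RA against NE, 34 to 40 and 15 to 27 for RA against DMSO, 22 to 25 and 23 to 27 for DMSO against NE, and 0 between stages. The 15 came from leaving out RA 8-S replicate 3; the cause was not tested.

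With the replicate block, no count of calls moved by over 1.5 times (23 remained the number for RA against DMSO at 8-S). Among named genes, the block gave 1.38 for insm1a in DMSO against NE at 8-S (adjusted p 0.00728 in DESeq2, now called), 1.08 for tshz1 in RA against NE at 3-S (0.0114, no longer called) and 2.16 for si:dkey-117n7.5 in RA against NE at 8-S (0.00258, now called). Of 2340 values for 180 pairs of a named gene and a comparison, 2190 kept direction and side of the threshold, 106 lost the call, 27 gained it and 17 changed sign. Those 17 left out 1 library each and concern values that were not called. They ranged from -0.28 to 0.75 (3-S) and -0.33 to 0.19 (8-S) for GADD45G (1 of 3), from -0.50 to 0.25 and -0.12 to 0.87 for GADD45G (3 of 3) and from -0.43 to 0.37 for nr2f2 at 3-S, all in RA against NE. In DMSO against NE they ranged from -0.0439 to 0.97 for insm1a, -0.30 to 0.42 for insm1b, -0.46 to 0.088 for rxrga and -0.35 to 0.087 for tshz1 at 3-S, and from -0.62 to 0.10 for nr2f2 at 8-S. In RA against DMSO at 8-S they ranged from -0.44 to 0.29 for nr2f2 and -0.31 to 1.52 for pdx1. Levels of 3 counts or fewer, 0.209 to 0.390 CPM, do not order the groups that hold them.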

Other observations

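The values below are of genes of the set that the comparisons above do not describe, picked after their values were seen. dysf encodes dysferlin, a protein of membrane repair, and had 9.16, 16.97 and 8.73 CPM with DMSO, 2.28, 1.78 and 1.46 with BMS493, 155, 17.02 and 54.5 with RA and 0.669, 0.183 and 0.218 in NE cells at 3-S. RA against NE gave 7.71 (SE 0.80) for dysf at 3-S and 5.86 (SE 0.74) at 8-S, both called with DESeq2. trabd2b, whose mammalian counterpart inactivates Wnt proteins, had 9.80, 26.9 and 15.7 CPM with DMSO, 3.55, 3.86 and 5.25 with BMS493, 96.8, 53.9 and 69.3 with RA and 2.01, 4.67 and 2.28 in NE cells at 3-S, and RA against NE gave 4.63 (SE 0.41). ppargc1b, a coactivator gene of mitochondrial metabolism, had 8.83, 6.25 and 4.53 CPM with DMSO, 2.28, 2.38 and 1.46 with BMS493, 11.2, 6.03 and 11.9 with RA and 2.58, 4.03 and 4.02 in NE cells at 3-S. It was called in RA against NE (1.46, SE 0.42) and not in RA against DMSO (0.53, SE 0.41).

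The genes without a symbol were abundant in DMSO cells. ENSDARG00000059269 had 178, 209 and 152 CPM with DMSO, 118, 34.3 and 46.9 with BMS493, 122.7, 323 and 129 with RA and 115, 109 and 69.0 in NE cells at 8-S. ENSDARG00000089737 had 129, 77.3 and 139 CPM with DMSO, 65.7, 14.1 and 14.2 with BMS493, 364, 154 and 21.9 with RA and 176, 48.8 and 244 in NE cells at 8-S. Neither was called in any comparison of RA, DMSO and NE cells.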
